A study of Rattus norvegicus with 20 samples.

Results

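The genes examined here encode subunits of the NMDA receptor, the glutamate-gated ion channel through which calcium enters neurons when glutamate release and depolarisation coincide. They were chosen by symbol in the deposited count matrix as *Grin1*, *Grin2a*, *Grin2b*, *Grin2c*, *Grin2d* and *Grin3a*, 6 of its 31038 gene rows. All 6 passed the filter on low counts (a minimum of 5 reads, reached in 10 or more rats), as did 16605 genes in all. Expression was measured by poly(A) RNA-seq in the mPFC (medial prefrontal cortex) of male Sprague-Dawley rats, with 1 library per rat, in 10 LSD-treated and 10 saline-treated rats (called controls). LSD (lysergic acid diethylamide, a psychedelic that acts on serotonin receptors) was given intraperitoneally at 0.16 mg/kg on alternate days over 90 days to rats aged 6 to 8 weeks at the start, and controls received sterile saline on the same schedule. Per the series' design text, tissue was taken after 3 weeks without drug, while the study's methods give a longer interval and an older age, for both groups alike. All rats were housed singly, and the tissue is a bulk dissection of one hemisphere, so that all cell types of the region are pooled in each library.

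Every NMDA receptor contains GluN1, the product of *Grin1*, which binds glycine or D-serine. GluN1 assembles with GluN2 subunits (from *Grin2a* to *Grin2d*), which bind glutamate and set the speed of the current, or with GluN3 subunits, which lower calcium entry and weaken the block by magnesium. In the cortex, GluN2B prevails early in postnatal life and GluN2A is added as circuits mature. GluN2D is found in the forebrain mainly in interneurons, GluN2C is best known from the cerebellum and is also found in glia, and GluN3A is most abundant in the first postnatal weeks. Drugs that block the NMDA receptor are, like chronic LSD, used in rodents as models of schizophrenia.

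Depth on genes was 16346629 to 25552681 reads in the LSD group and 11098076 to 24201351 reads in the controls (exact two-sided permutation test on log2 reads, p = 0.0139). Levels are given as RPM, the reads of a gene relative to the size of the library after TMM normalisation. The log2 fold change of LSD over control, its standard error (SE) and its p were obtained with the quasi-likelihood test of edgeR, and p was adjusted by Benjamini-Hochberg over the 16605 genes, with a threshold of 0.05. In this comparison 1076 genes, or 6.48% of those tested, were higher in LSD-treated rats and 1418, or 8.54%, were lower, so that 56.9% of the 2494 called genes (15.0% of those tested) were lower. This share was 36.3% when libraries were scaled by total counts and 46.5% without the filter on low counts. Long genes were shifted upwards as a class: the log2 fold change rose with a gene's genomic span (start to end in the GRCr8 annotation) with Spearman's rho = 0.36 across 14929 genes, which are not independent replicates. Within single rats, the rho between span and how far a gene lay from its average over the 20 rats was between 0.06 and 0.26 in LSD-treated rats and between -0.41 and 0.10 in controls, with control 9 at the lowest value. Each subunit is therefore also given after a correction of every rat's counts for gene span, under which 10.2% of genes were called, 3.30% higher and 6.87% lower, so that 67.5% of called genes were lower. Libraries also differed in genes of striatal projection neurons, cells of the neighbouring striatum: the 6 markers summed to between 341 and 485 RPM in 4 rats (LSD 9 and controls 2, 8 and 9) and to between 131 and 224 RPM in the other 16. Results are given without these 4 rats as well, a choice made after the data were seen. The fit without them called more genes, 3364 of 16605, of which 1691 were higher and 1673 lower. These 4 rats also had the 4 highest sums of oligodendrocyte markers.

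*Grin2a*, which encodes GluN2A, had the largest fold change of the 6 subunits. In LSD-treated rats its lowest, median and highest levels were 80.6, 106 and 132 RPM, and in controls 35.9, 80.6 and 91.1 RPM. All 10 LSD-treated rats lay above the median of the controls and 8 of them above the highest control, while 5 controls lay below the lowest LSD-treated rat. The mean was 106 ± 16.2 RPM with LSD and 75.1 ± 16.3 RPM with saline (SD, n = 10 per group). Each rat had 713 to 2660 reads of the gene, and the log2 fold change was 0.49 (SE 0.122, adjusted p = 0.0125), a 1.41-fold higher level with a 95% interval from 1.18 to 1.68. In bulk tissue, more cells of a type and more RNA per cell cannot be told apart. The lowest value, 35.9 RPM, was that of control 9, and with each rat left out in turn the log2 fold change stayed between 0.41 and 0.53 and past the threshold in all 20 fits. It was 0.38 (adjusted p = 0.0214) after the span correction and 0.41 (adjusted p = 0.00911) without the 4 rats with the most striatal marker reads.

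*Grin3a*, which encodes GluN3A, rose as well, though few of its reads were counted. Its lowest, median and highest levels were 11.5, 15.8 and 19.0 RPM in LSD-treated rats and 9.32, 12.1 and 13.9 RPM in controls. The groups overlapped in few rats: 8 of the 10 LSD-treated rats lay above the highest control, the other two being LSD 9 and LSD 10, and all 10 controls lay below the median of the LSD-treated rats. The mean was 15.5 ± 2.33 RPM (SD, n = 10) with LSD and 11.9 ± 1.37 (SD, n = 10) with saline, from 131 to 436 reads per rat, and the log2 fold change was 0.38 (SE 0.0881, adjusted p = 0.00903), 1.30-fold with a 95% interval from 1.15 to 1.48. The log2 fold change was 0.28 (adjusted p = 0.0332) after the span correction, 0.36 (adjusted p = 0.00848) without the 4 rats with the most striatal marker reads, and between 0.35 and 0.43 with each rat left out, past the threshold in all 20 fits.

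**Figure D1:**
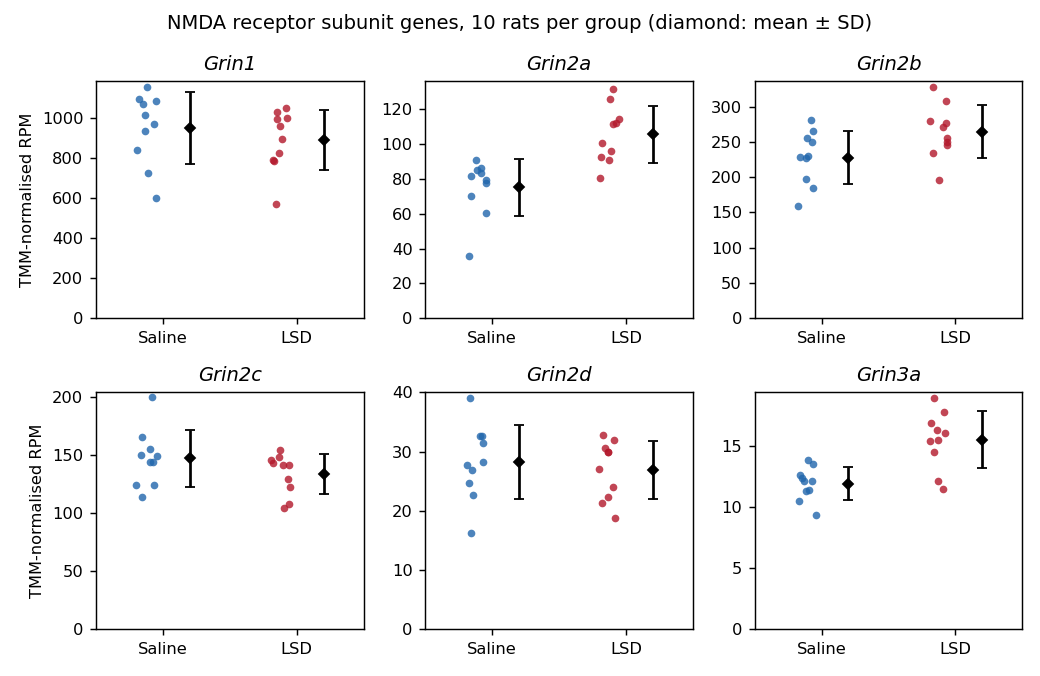
TMM-normalised RPM (vertical axes, each starting at 0) of the 6 subunit genes in each rat, controls in blue and LSD-treated rats in red, with the mean and SD beside the points. For *Grin2a* and *Grin3a*, 8 of the 10 LSD-treated rats lie above the highest control, whereas the points of the other 4 genes overlap widely.

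*Grin2b*, which encodes GluN2B, lay between these genes and the rest. Its lowest, median and highest levels were 195, 263 and 328 RPM with LSD and 159.7, 229 and 281 RPM with saline, and 9 of the 10 rats given LSD exceeded the control median, but only 2 exceeded the highest control. The log2 fold change of 0.22 (SE 0.0948) had an unadjusted p of 0.0326 and did not pass the threshold (adjusted p = 0.124), with a 95% interval from 1.01-fold to 1.33-fold. This call depended on the scaling: with total counts in place of TMM, which moved the median over all genes from 0.00 to 0.05 on the log2 scale, the value was 0.26 (adjusted p = 0.0492). Corrected for span, the log2 fold change was 0.09 (adjusted p = 0.498).

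*Grin1*, the subunit common to all NMDA receptors, showed no detectable difference. Its lowest, median and highest levels were 567, 927 and 1046 RPM with LSD and 597, 992 and 1153 RPM with saline, and the ranges overlapped almost fully. The log2 fold change was -0.09 (SE 0.113, adjusted p = 0.617), and the 95% interval ran from 0.797-fold to 1.10-fold, so that changes of the size seen for *Grin2a* lie outside it. These counts were the deepest of the family, from 11539 to 21049 reads per rat, and the width of the interval comes from the spread between rats.

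The remaining GluN2 genes did not pass the threshold either, and both had negative values. *Grin2c* ranged from 104 to 154 RPM with LSD (median 141) and from 114 to 199.8 RPM with saline (median 147), and its log2 fold change was -0.14 (SE 0.0893, adjusted p = 0.315), with an interval from 0.801-fold to 1.03-fold. *Grin2d* ranged from 18.8 to 32.8 RPM with LSD (median 28.5) and from 16.3 to 39.0 RPM with saline (median 28.0), and its log2 fold change was -0.07 (SE 0.125, adjusted p = 0.763), with an interval from 0.797-fold to 1.14-fold. For both genes the LSD-treated rats lay largely inside the range of the controls. Their values stayed negative with each rat left out, between -0.17 and -0.08 for *Grin2c* and between -0.13 and -0.01 for *Grin2d*.

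Of the 6 subunits, 2 were thus higher (against 6.48% of all genes tested) and none was lower in LSD-treated rats, and the median log2 fold change was 0.07, against 0.00 over all genes tested. The sign of the value, though not its size, divided the subunits by the span of the gene. *Grin2b*, *Grin2a* and *Grin3a* span 477610, 423546 and 199548 bases and had positive values, and *Grin2d*, *Grin1* and *Grin2c* span 40084, 26919 and 18655 bases and had negative ones. Among the 942 tested genes with a span of at least that of *Grin3a*, 19.7% were called higher and 1.49% lower, and the median change was 0.12 on the log2 scale. Among the 9672 genes with a span of at most that of *Grin2d*, 2.66% were called higher and 12.7% lower, with a median of -0.05. *Grin2a* and *Grin3a* remained called under the span correction, where 3.30% of all genes were called higher. What sets the span trend was not tested.

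**Figure D2:**
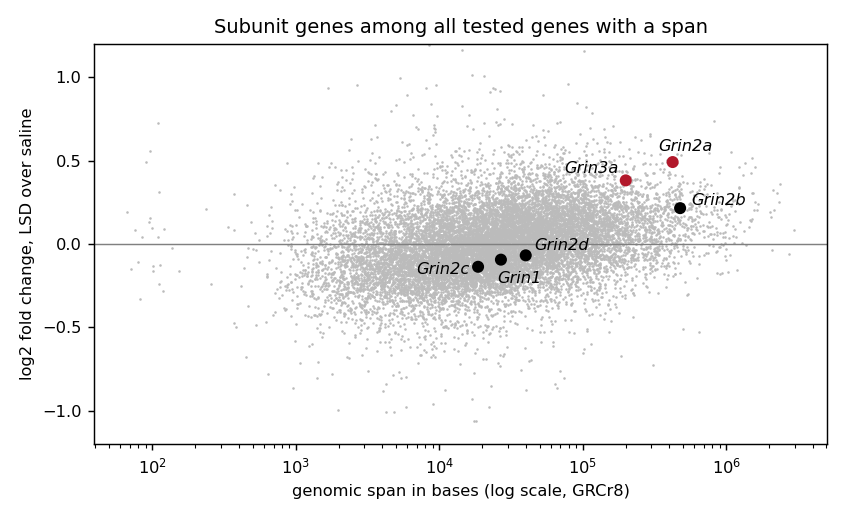
Log2 fold change of LSD over control (vertical axis) against genomic span in bases (horizontal axis, log scale) for the 14929 tested genes with a known span, in grey, of which 5 lie outside the plotted range of -1.2 to 1.2. The 6 subunit genes are marked, in red where the adjusted p is under 0.05: the 3 long ones lie above 0 and the 3 short ones below it.

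**Figure D3:**
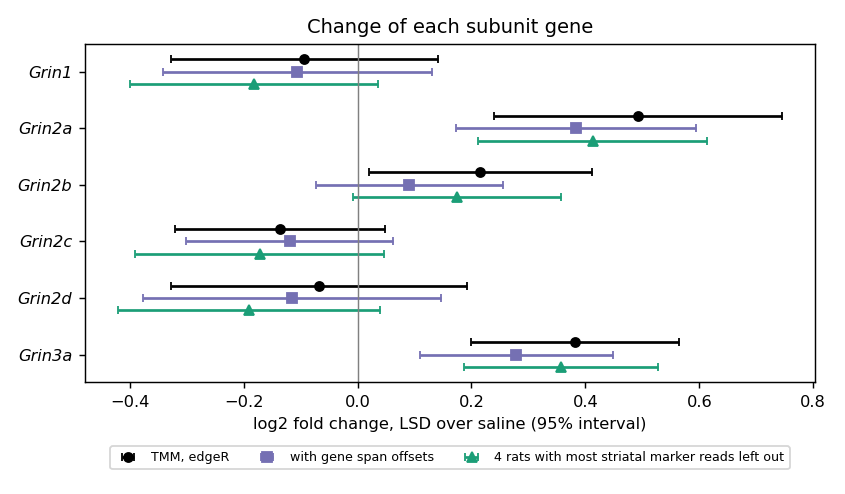
Log2 fold change of LSD over control with its 95% interval (horizontal axis) for each subunit gene, from edgeR after TMM (black circles), with gene span offsets (purple squares), and without the 4 rats with the most striatal marker reads (green triangles). The intervals of *Grin2a* and *Grin3a* stay above 0 in all 3 fits, and that of *Grin2b* includes 0 in the last 2.

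Subunits were next compared within each rat, as ratios of reads, which do not depend on how libraries are scaled. Because transcript length was not used here, such a ratio can be compared between rats but does not give the proportion of transcripts. There were on average 0.399 reads of *Grin2a* per read of *Grin2b* with LSD and 0.325 with saline (geometric means). The log2 ratio was -1.32 ± 0.19 (SD, n = 10) with LSD, with lowest, median and highest values of -1.63, -1.36 and -1.07, and -1.62 ± 0.29 (SD, n = 10) with saline, with -2.15, -1.57 and -1.19. It was higher by 0.30 with LSD (exact two-sided permutation test over all 184756 splits, p = 0.0129, which is also its adjusted p over the 2 ratios tested), and 9 of the 10 LSD-treated rats lay above the median of the controls. The spans of these 2 genes are alike, and the difference was 0.30 after the span correction as well (adjusted p = 0.0118, exact permutation test). Without the 4 rats with the most striatal marker reads it was 0.24 (adjusted p = 0.0450, exact permutation test).

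The reads of *Grin2a* and *Grin2b* together, relative to those of *Grin1*, separated the groups further before the span correction. This ratio sets 2 long genes against 1 short gene, so that the span trend enters it. The log2 ratio was -1.25 ± 0.14 (SD, n = 10) with LSD, with lowest, median and highest values of -1.52, -1.25 and -0.98, and -1.64 ± 0.23 (SD, n = 10) with saline, with -1.91, -1.65 and -1.23. All 10 rats given LSD exceeded the control median and 7 controls were below the lowest LSD-treated rat, although 3 controls lay within the LSD range. The difference of 0.39, or 1.31-fold, had a p of 0.000465 and an adjusted p of 0.000931 (exact two-sided permutation test). The ratios were chosen with earlier results of these data known, which the adjustment over 2 ratios does not cover. After the span correction the difference was 0.27 (adjusted p = 0.0100, exact permutation test), against 0.30 for *Grin2a* over *Grin2b*. It was 0.43 without the 4 rats with the most striatal marker reads (adjusted p = 0.000699, exact permutation test).

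**Figure D4:**
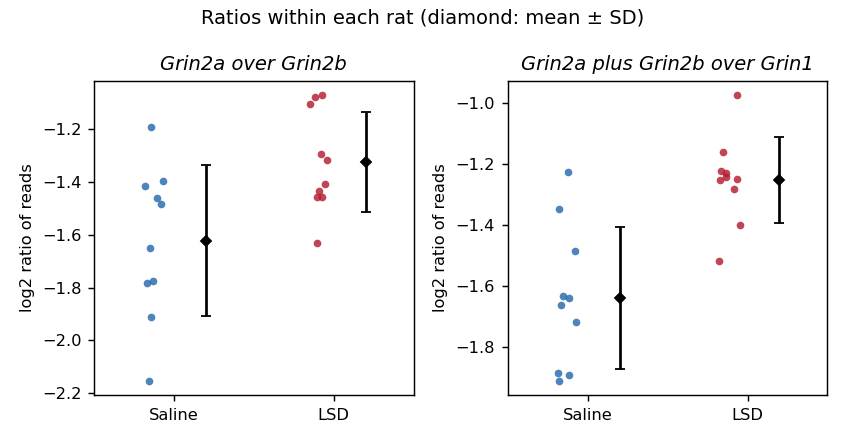
Log2 ratio of reads within each rat (vertical axes) for *Grin2a* over *Grin2b* (left) and for *Grin2a* plus *Grin2b* over *Grin1* (right), controls in blue and LSD-treated rats in red, with the mean and SD beside the points. On the left 9 and on the right all 10 LSD-treated rats lie above the median of the controls.

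Between rats of the same group, *Grin2a* and *Grin2b* varied together. After subtracting each group's mean, their log2 levels correlated over the 20 rats with Pearson's r = 0.66 (permutation test within groups, p = 0.00305) and Spearman's rho = 0.56 (permutation test, p = 0.0132), the only pair tested. The r was 0.62 within LSD-treated rats and 0.69 within controls. Without control 9 and LSD 7, the 2 rats farthest from the median of *Grin2a*, r was 0.49 (permutation test, p = 0.0411). With total counts in place of TMM, r without these 2 rats was 0.40 and did not pass the threshold (permutation test, p = 0.0962). After the span correction r was 0.44 and did not pass the threshold (permutation test, p = 0.0602), and 0.36 without the 2 rats (permutation test, p = 0.148). The r of 0.66 was not the highest among the subunits, whose pairs ranged from 0.14 (*Grin2a* with *Grin2c*) to 0.89 (*Grin1* with *Grin2d*).

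**Figure D5:**
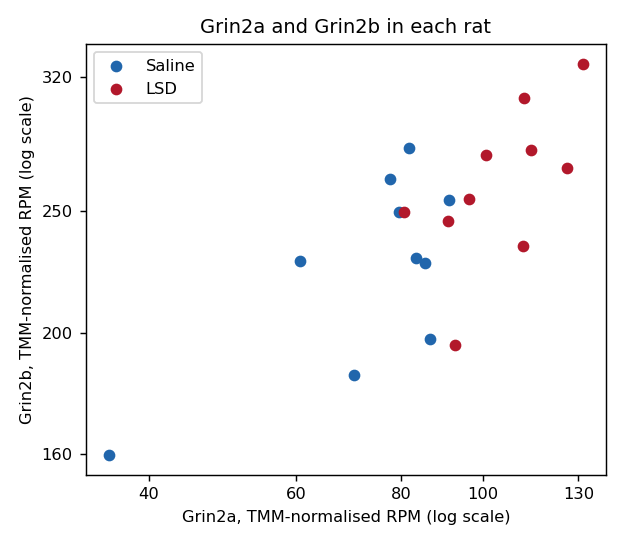
TMM-normalised RPM of *Grin2a* (horizontal axis) and *Grin2b* (vertical axis) in each rat, both on log scales, controls in blue and LSD-treated rats in red. Control 9 has the lowest level of both genes (35.9 and 159.7 RPM) and LSD 3 the highest (132 and 328 RPM).

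As a description, the genes whose pattern over the 20 rats was most like that of each subunit were listed by Pearson's r of group-centred log2 levels. All points share their libraries, and thereby depth and the span trend. Nearest to *Grin1* were *Ube2o*, *Ap3b2* and *Nol6* (r from 0.98 to 0.99), and to *Grin2d* *Caskin1*, *Cabin1* and *Ncln* (r = 0.95 each), of which *Ncln* was lower in LSD-treated rats (log2 fold change -0.36, adjusted p = 0.0474). Among the subunits themselves *Grin1* and *Grin2d* were the most alike (r = 0.89), and *Grin2a* and *Grin2c* the least (r = 0.14). The genes nearest to *Grin2a* were *Erbb4*, a receptor for neuregulins, *LOC103691695* and *Map3k9* (r from 0.93 to 0.94), and of these *Erbb4* (log2 fold change 0.56, adjusted p = 0.0100) and *LOC103691695* (0.46, adjusted p = 0.0378) were themselves higher in LSD-treated rats. *Grin2b* was closest to *Huwe1*, *Htt* and *Herc2* (r from 0.93 to 0.95), none of which passed the threshold, and *Grin2c* to *Brat1*, *Asb2* and *Adgrg1* (r from 0.88 to 0.93). The nearest gene to *Grin3a* was *Gria1*, which encodes the AMPA receptor subunit GluA1 (r = 0.84), followed by *Bmp3* and *Pcdhgb8*.

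A further subunit gene, *Grin3b*, is not among the 6 but has a row in the matrix. It encodes GluN3B, had from 77 to 171 reads per rat, and was lower in LSD-treated rats, with 6.14 ± 1.02 RPM (SD, n = 10) against 8.00 ± 1.65 (SD, n = 10) and a log2 fold change of -0.37 (SE 0.119, adjusted p = 0.0384). The direction was thus opposite to that of *Grin3a*, but the call was lost after the span correction (-0.31, adjusted p = 0.0875) and in 14 of the 20 fits with 1 rat left out.

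Genes that work with the receptor were grouped in 7 lists. Among 13 genes that supply or remove its co-agonists glycine and D-serine, 1 was lower (against 8.54% of all genes tested) and none higher. The median log2 fold change was -0.18, with 11 of 13 values negative. All of these 13 genes except *Slc6a5* and *Slc1a4* have a span of at most that of *Grin2d*. Among all tested genes with such a span 12.7% were called lower, with a median of -0.05. The gene called was *Slc6a9*, the glycine transporter GlyT1, which clears glycine around the receptor. It was at 95.2 ± 14.5 RPM (SD, n = 10) in controls and at 75.3 ± 7.67 RPM (SD, n = 10) with LSD, a log2 fold change of -0.34 (SE 0.0791, adjusted p = 0.00959), and it was called in all 20 fits with 1 rat left out and after the span correction (-0.38, adjusted p = 0.00784). *Srr*, which makes D-serine, had a value of 0.17 (adjusted p = 0.0758), and of 0.22 (adjusted p = 0.0464) without the 4 rats with the most striatal marker reads. Over all genes that fit called 3364, against 2494 with every rat kept.

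Of 16 postsynaptic scaffold genes, 5 were higher and none was lower, and the median over the list was 0.01 on the log2 scale. Of all genes tested, 6.48% were called higher, and 19.7% of those with a span of at least that of *Grin3a*. The calls with the smallest p were *Lrrc7*, which encodes densin (0.38 on the log2 scale, adjusted p = 0.00697), the Ras pathway scaffold *Cnksr2* (0.30, adjusted p = 0.00807), *Homer1* (0.30, adjusted p = 0.0250) and *Dlg1*, which encodes SAP97 (0.25, adjusted p = 0.0260), and *Dlg2*, which encodes PSD-93, was the fifth (0.16, adjusted p = 0.0394). The call of *Dlg2* was lost in 11 of the 20 fits with 1 rat left out and without the filter on low counts, and those of *Homer1* and *Dlg1* were lost without LSD 8 only among these 20 fits (adjusted p = 0.0504 and 0.0515). *Dlg4*, which encodes PSD-95 and is named here after its value was seen because it binds the tails of GluN2 subunits, had a value of -0.17 (adjusted p = 0.146), which was -0.25 (adjusted p = 0.0254) without the 4 rats with the most striatal marker reads. Over all genes that fit called 1673 lower, against 1418 with every rat kept. After the span correction *Lrrc7* and *Cnksr2* were still called, and *Dlgap3* was called lower.

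Of 21 kinases and phosphatases that act on the receptor, 4 were higher and 3 lower, against 6.48% and 8.54% of all genes tested. *Prkca* and *Prkcb*, isoforms of protein kinase C, rose by 0.24 and 0.30 on the log2 scale (adjusted p = 0.0134 each), as did *Ppp3cb*, a catalytic subunit of calcineurin, by 0.22 (adjusted p = 0.0269). *Cdk5*, which phosphorylates GluN2 subunits, fell by 0.21 on the log2 scale (adjusted p = 0.0126). The other calls were *Prkacb* (higher) and *Csnk2b* and *Prkaca* (lower), which were lost in 8, 13 and 17 of the 20 fits with 1 rat left out. None of these 7 calls held after the span correction, which left no gene called higher and called *Ptk2b*, *Camk2b* and *Ptpn5* lower.

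Of 13 genes for trafficking and surface partners of the receptor, 5 were higher and none was lower. Higher calls made up 6.48% of all genes tested and 19.7% of those with a span of at least that of *Grin3a*. The median over the list was 0.16 on the log2 scale. *Cask* and *Lin7c*, parts of the complex that links the receptor to its transport motor, had values of 0.45 each (adjusted p = 0.0120 and 0.0104), *Lin7a* of 0.46 (adjusted p = 0.0247) and *Neto1*, an auxiliary protein of glutamate receptors, of 0.22 (adjusted p = 0.0239), and the fifth was the adhesion gene *Nlgn1* (0.20, adjusted p = 0.0488). The call of *Lin7a* was lost in 1 of the 20 fits with 1 rat left out (without LSD 8, adjusted p = 0.0504). The call of *Nlgn1* was lost in 14 of the 20 fits with 1 rat left out and without the 4 rats with the most striatal marker reads (0.19, adjusted p = 0.0576). *Cask* and *Lin7c*, the latter with a span of 12939 bases, were also called after the span correction (adjusted p = 0.0332 and 0.0121).

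Among 16 genes of calcium signalling downstream of the receptor, 2 were higher, against 6.48% of all genes tested. *Camk4*, a nuclear calmodulin-dependent kinase, had a value of 0.32 (adjusted p = 0.0364) and *Creb1*, the transcription factor CREB, of 0.29 (adjusted p = 0.0408). Both calls were close to the threshold, being lost in 8 (*Camk4*) and 12 (*Creb1*) of the 20 fits with 1 rat left out. In these fits the values stayed between 0.26 and 0.37 for *Camk4* and between 0.25 and 0.33 for *Creb1*. *Mapk3*, which encodes ERK1, had one of -0.35 (adjusted p = 0.00468) and was lower in LSD-treated rats, and of these 3 genes it was the only one called in all 20 fits with 1 rat left out and after the span correction (adjusted p = 0.00830). Of 8 genes for glutamate release and uptake, 1 was called, against 15.0% of all genes tested. It was *Slc1a2*, the glial transporter GLT-1, at 0.41 on the log2 scale (adjusted p = 0.0423). It was not called after the span correction (0.33, adjusted p = 0.0790), without the 4 rats with the most striatal marker reads (0.28, adjusted p = 0.0679) or in 13 of the 20 fits with 1 rat left out.

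Of the 11 genes for AMPA, kainate and delta receptors, 4 were higher and none was lower, and the median over the list was 0.15 on the log2 scale. Higher calls made up 6.48% of all genes tested and 19.7% of those with a span of at least that of *Grin3a*. The genes called here were *Grik2* (0.30, adjusted p = 0.00623), *Gria4* (0.27, adjusted p = 0.0168), *Gria2* (0.24, adjusted p = 0.0174) and *Gria3* (0.22, adjusted p = 0.0234). None of the 11 was called after the span correction, unlike *Grin2a* and *Grin3a*, but *Grik2* missed the threshold narrowly (0.17, adjusted p = 0.0501). Whether the changes of these genes differ from those of the NMDA receptor genes was not tested.

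Markers of the cell types in the tissue were read beside these results. All 7 markers of excitatory neurons were detected, and their summed level ranged from 2044 to 2811 RPM with LSD and from 2124 to 3177 RPM with saline. The 7 markers of inhibitory interneurons summed to between 680.0 and 837 RPM with LSD and between 721 and 958 RPM with saline. Of these 7, 2 were called higher and 2 lower, against 6.48% and 8.54% of all genes tested. No marker of astrocytes (7 genes), oligodendrocytes (6), oligodendrocyte precursors (3), microglia (6), endothelium (3) or choroid plexus (3) was called, and the choroid plexus markers summed to at most 4.83 RPM in every rat. The 6 oligodendrocyte markers all had negative values (median log2 fold change -0.35) and summed to between 2232 and 5761 RPM with LSD and between 2195 and 7479 RPM with saline. The 4 highest of these sums were those of the 4 rats with the most striatal marker reads. They were 5761 RPM in LSD 9 and 7479, 7442 and 6376 RPM in controls 2, 8 and 9. The 6 striatal markers also had negative values, and 1 of them, *Gpr6*, was called (log2 fold change -1.24, adjusted p = 0.0394, and -0.70 without the 4 rats). The part of cell composition in the subunit values was not tested beyond the fits without the 4 rats with the most striatal marker reads. Those fits leave out the highest striatal and oligodendrocyte sums together, so that these cannot be told apart.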

How the data were processed

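Raw counts per gene were deposited by the authors, who used TrimGalore for trimming, Hisat2 for alignment to rn6 and HTSeq-count for counting. Versions, the gene annotation and the strand setting are not given in the sources used here, so that reads of overlapping or antisense genes may not be told apart. Of the sum over all rows of the matrix, 25.5% to 29.0% stood in 5 rows without a gene name, which were left out. What these rows hold was not tested, so this share need not be reads of genes. No pair of libraries was identical. Depth on genes was 11098076 to 25552681 reads, and the spread between rats limits precision.

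Groups were taken from the sample titles. Genes reaching 5 reads in 10 or more rats were tested with edgeR 4.0.16 in R 4.3.3 (TMM, quasi-likelihood F test, Benjamini-Hochberg adjustment, threshold 0.05). The study used DESeq2, run here as an alternative (version 1.42.0). Simulated counts, drawn without a span trend or striatal differences between rats, served as a check of the test. That check does not bear on those 2 features. For the span correction, genes were put in 50 bins by span, the mean log2 deviation of each rat per bin was smoothed over 5 bins, and the centred result was used as an offset (0 for genes without a span), and 89.9% of genes had a span by symbol or synonym in GRCr8, whose genes stand in for those of rn6. Ratios are log2 of reads with 0.5 added, and correlations used 100000 shuffles within groups (Python 3.11.15, numpy 2.4.6, scipy 1.17.1). Levels were not compared between genes, since transcript lengths were not used here.

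The subunit genes, gene lists and tests were chosen with earlier results of these data known. Genes named are the 6 subunits, *Grin3b*, in each list up to 4 called genes by smallest p or otherwise the 2 with the smallest p, and the 3 genes nearest to each subunit in pattern. *Srr*, *Dlg2*, *Dlg4*, *Dlgap3*, *Prkacb*, *Csnk2b*, *Prkaca*, *Ptk2b*, *Camk2b*, *Ptpn5*, *Nlgn1* and the markers named were added after their values were seen. For the calcium signalling list, part of the result is not reported here.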

Additional observations from a re-analysis of the deposited data

How the results depend on the processing

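*Grin2a* and *Grin3a* kept their direction and passed the threshold under DESeq2, median-ratio factors, total counts, both filters, reads drawn down to 11098076 per rat, both span fits and every fit with 1 rat left out. *Grin1*, *Grin2c* and *Grin2d* stayed negative and uncalled in all of these. *Grin2b* passed with total counts alone (0.26), where the median over all genes was 0.05. The correlation of *Grin2a* with *Grin2b* did not pass after the span correction (r = 0.44), or with total counts without control 9 and LSD 7 (r = 0.40). Both ratios passed the threshold under each alternative run, and with each rat left out they ranged from 0.24 to 0.35 and from 0.35 to 0.43. The count of called genes, 2494, was 1688 after the span correction and 3057 with DESeq2, and with each rat left out it ranged from 1566 (without LSD 8) to 3548 (without control 2), with 1662 without control 4. It was 3364 without the 4 rats with the most striatal marker reads. The cause was not tested.

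Rats share replicate numbers across groups, but the labels do not say that a number marks a common litter or day. Group-centred profiles correlated at over 0.1 in 5 of 10 same-numbered pairs, and in 1 LSD-treated rat of 10 the best match was the rat with its own number, so the numbers were not taken as pairs. A replicate block in the fit gave 2961 called genes. The log2 fold change was then 0.51 for *Grin2a* (adjusted p = 0.00746) and 0.37 for *Grin3a* (adjusted p = 0.00615), and the block changed the call of none of the 6 subunits and of neither ratio, while *Grin3b* was no longer called.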

Other observations

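Markers of inhibitory interneurons moved in both directions. *Slc32a1*, the vesicular GABA transporter, was lower in LSD-treated rats (log2 fold change -0.34, adjusted p = 0.0180), as was *Sst*, which encodes somatostatin (-0.28, adjusted p = 0.0222), whereas *Gad2*, an enzyme of GABA synthesis (0.23, adjusted p = 0.0369), and *Vip*, which encodes a neuropeptide of another interneuron class (0.27, adjusted p = 0.0486), were higher. After the span correction *Slc32a1* (-0.27, adjusted p = 0.0445) and *Vip* (0.33, adjusted p = 0.0288) were called and the other two were not, and *Sst* was not called without the 4 rats with the most striatal marker reads (-0.19, adjusted p = 0.0975). With 1 rat left out, *Gad2* was called in 9 and *Vip* in 6 of 20 fits. *Rorb*, a transcription factor of cortical input layer neurons, was the only excitatory marker called (0.24, adjusted p = 0.0156), and it was not called after the span correction (0.14, adjusted p = 0.0897). These genes are all the called markers of both lists.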
